A study of Mus musculus with 12 samples.

Results

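Myc is a transcription factor induced when T cells are activated, and genes for making ribosomes are among its best-known targets. Ribosome production starts in the nucleolus, where RNA polymerase I transcribes the ribosomal RNA precursor, small nucleolar ribonucleoprotein particles (snoRNPs) guide its chemical modification, and large protein assemblies fold, cut and package it into the small and the large subunit. A resting lymphocyte has small nucleoli, and one that is about to divide enlarges them. The 37 genes described here are Myc and 36 nucleolar genes of this pathway, taken by symbol from a named list that was drawn up with earlier results of these data known. All 37 were found among the 39017 gene identifiers of the count table, and all 37 were among the 14585 genes with enough reads to be tested.

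The RNA came from CD4+ T cells of SJL mice bred so that sex chromosomes and gonads vary independently. Their Y chromosome lacks the testis gene Sry (written Y-) and Sry, where present, is a transgene. The groups were XX and XY-, which are gonadal females, and XXSry and XY-Sry, labelled male, with 3 libraries each. In all 4 groups the gonads had been removed at 4 to 6 weeks of age, with carprofen and amoxicillin given around surgery, and lymph node CD4+ T cells had been enriched by magnetic negative selection and stimulated for 36 hours with beads carrying anti-CD3 and anti-CD28. The design text gives 8 to 12 weeks as the age at node collection for the gonadal females, and the labels leave unsaid if the 3 libraries of a group are 3 animals. The p-values therefore reflect only how far these libraries spread, a spread that may be technical. Every group was stimulated, so the values describe the level of the program in activated cells and not its induction.

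Library totals ran from 11664186 to 16710188 counts. The smallest library, XX replicate 3, had a mitochondrial share of 5.01%, where the others had 2.27% to 2.87%. The levels of Xist, Ddx3y, Uty and Sry matched the labelled genotype in all 12 libraries. The 10 markers of CD4 T cells summed to 4782 to 5369 CPM (counts scaled to a fixed library size with TMM factors), and the 6 of CD8 T and NK cells to 41.8 to 82.1 CPM. B cell markers summed to 292.7 to 372.1 CPM, with the highest value in XXSry replicate 3. Myeloid and dendritic cell markers reached at most 18.5 CPM with Itgax at 0, stromal and endothelial markers 79.4 to 126.8 CPM, and erythrocyte and platelet markers at most 0.577 CPM with Hba-a1 at 0.

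The promoter windows below are shown because they hold CACGTG, the E-box sequence that Myc with its partner Max is known to bind. RefSeq windows (GRCm38.p6, 250 bases before to 50 bases after a gene's start) were at hand for 31 of the 37 genes. The motif, which reads the same on both strands, was in 5 of these 31 windows (16.1%) and in 8.09% of the windows of 27025 genes. Each sequence is written 5′ to 3′ on the gene's strand, with up to 12 bases on each side and the motif in capitals.
Nop2 (chr6:125131811-125131840, plus strand, 60 bases before the start): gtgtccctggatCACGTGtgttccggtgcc
Utp20 (chr10:88826765-88826789, minus strand, 38 bases after the start): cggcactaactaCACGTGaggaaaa
Pes1 (chr11:3963965-3963994, plus strand, 3 bases after the start): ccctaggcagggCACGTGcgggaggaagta
Mybbp1a (chr11:72441355-72441376, plus strand, 41 bases after the start): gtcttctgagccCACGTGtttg
Wdr43 (chr17:71616220-71616249, plus strand, 18 bases after the start): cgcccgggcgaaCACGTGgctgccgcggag
A match describes these letters in this window and is not a measured binding site, and Bop1, Myc, Rrp12, Npm1, Fbl and Rrs1 were not searched.

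Together the 37 genes took 0.733% to 0.992% of all counts in a library. Per kilobase of coding sequence, which allows genes of different length to be compared, the level over 12 libraries was highest for Ncl (nucleolin, 1030 CPM per kb), followed by Npm1 (nucleophosmin, 716 CPM per kb), Nop10 (466 CPM per kb) and Myc itself (435 CPM per kb). It was lowest for Fbl (fibrillarin, 16.6 CPM per kb) and next lowest for Utp20 (18.2 CPM per kb). The counts of Fbl are uncertain because of near-identical entries described below, so its low rank is uncertain too. The order depends on the length used, since on annotated transcript length Myc ranked first with 434 CPM per kb, followed by Npm1 with 384 and Ncl with 266 CPM per kb. The ratio of the highest to the lowest of the 12 libraries ran from 1.24 for Ubtf to 1.70 for Rrp9. Within groups, the SD on the log2 scale had a median of 0.145 over the 37 genes (0.0723 for Pes1 to 0.229 for Rrp12), against 0.093 over the 8499 tested genes at or above the level of the lowest member.

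The genes varied together from library to library, and 3 libraries held low values in nearly all of them. Relative to each gene's mean over 12 libraries, the median over the 37 genes was 0.04, -0.21 and -0.01 (log2) in XX replicates 1, 2 and 3, and 0.13, -0.18 and 0.04 in XY- replicates 1, 2 and 3. It was 0.09, -0.02 and -0.26 in XXSry replicates 1, 2 and 3, and 0.12, 0.18 and 0.12 in XY-Sry replicates 1, 2 and 3. Thus XX, XY- and XXSry each had 1 library well below the other 2, while the 3 XY-Sry libraries lay close together and high. XX replicate 2 was the lowest of its group for 33 of 37 genes, XY- replicate 2 for all 37 and XXSry replicate 3 for 35. The exceptions included Fbl, which was highest of its group in XXSry replicate 3, and Myc was at its overall mean (0.00) in XY- replicate 2. XXSry replicate 3 was the lowest of all 12 libraries for 23 genes, and XY-Sry replicate 2 the highest of all 12 for 17. Over all tested genes the same median was between 0.00 and 0.01 in these libraries. The scaling holds that median near 0 in every library, so it does not show whether other genes shifted. In bulk RNA, fewer activated cells and less of these RNAs in each cell cannot be told apart.

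**Figure D1:**
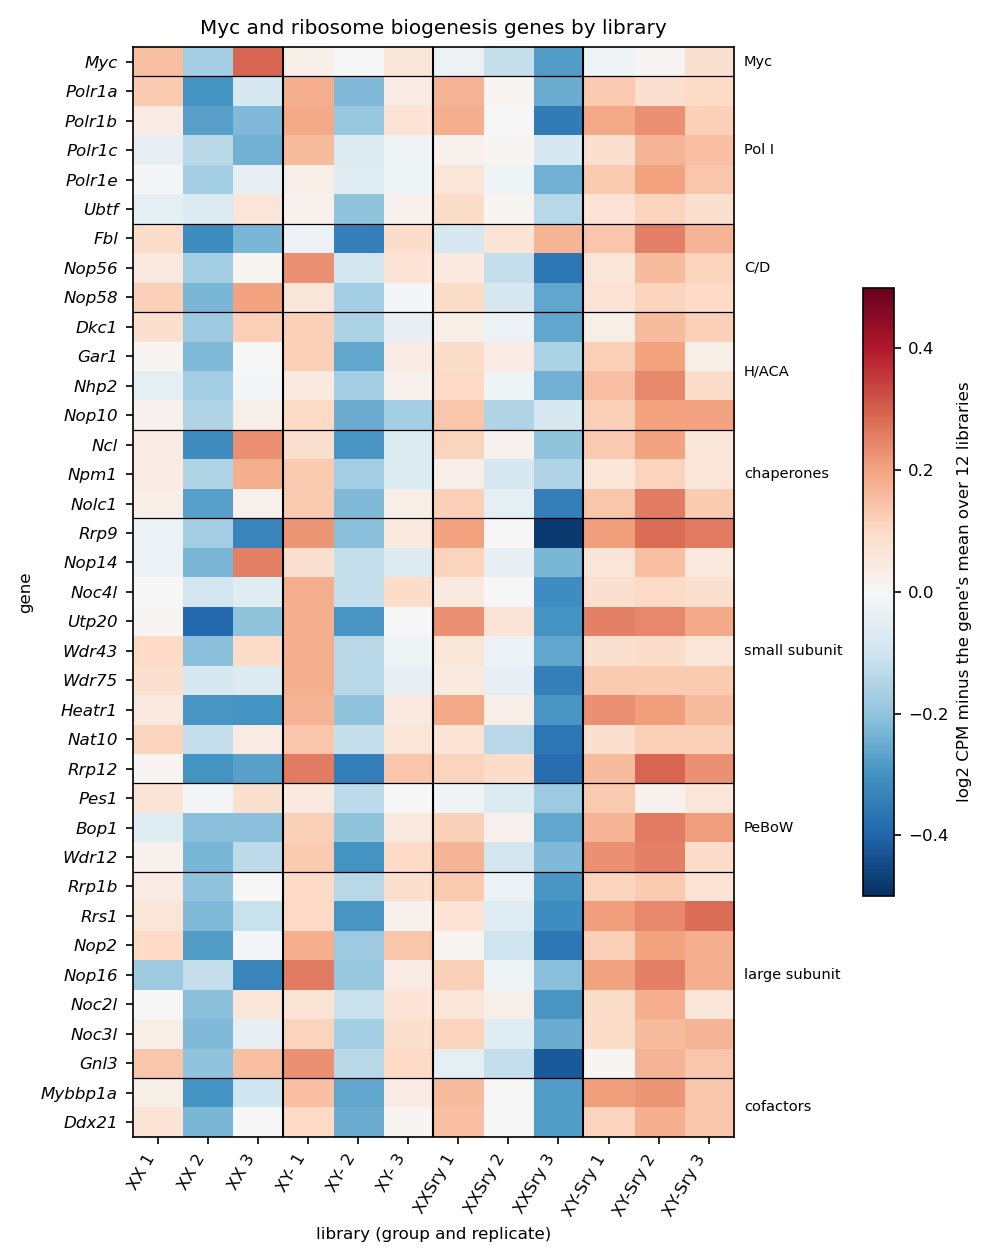
Each row is a gene, grouped by role, and each column a library; the colour gives log2 CPM minus the gene's mean over 12 libraries, red above and blue below. XX 2, XY- 2 and XXSry 3 are blue in nearly every row, and the 3 XY-Sry columns are mostly red.

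Activation markers did not all go the same way in the low libraries. The level of Cd69, an early activation marker, was 70.1 CPM in XX replicate 2, 72.1 in XY- replicate 2 and 63.0 in XXSry replicate 3, the 3 lowest of the 12 libraries, which otherwise held 78.6 to 115.6 CPM. Cd44, another marker that activated T cells raise, was lowest of its group in each of these libraries, at 84.9, 73.7 and 92.4 CPM. Mxd4, which encodes a partner of Max that opposes Myc, was highest in these libraries within their groups, at 42.3, 35.4 and 53.1 CPM. Mxi1 (59.3, 62.7 and 52.6 CPM) and Mxd1 (104.5, 94.7 and 121.8 CPM), other opponents of Myc, were highest there as well. Mxd3 and Mnt, also opponents, were highest of their group in XY- replicate 2 and XXSry replicate 3 but not in XX replicate 2. Mga, another Max partner, was highest of its group only in XY- replicate 2. Il2ra, the alpha chain of the IL-2 receptor, which activated T cells raise, was instead highest of its group in XX replicate 2 (2563 against 2468 and 2491 CPM) and in XY- replicate 2 (2562 against 2167 and 2423 CPM). In XXSry replicate 3 it was the lowest of its group, at 2251 against 2261 and 2303 CPM. XXSry replicate 3 also had the highest sums of B cell and of stromal markers (372.1 and 126.8 CPM). The part of the cell mixture or of the activation state in the low values was not tested.

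By group mean, XY-Sry was highest for 36 of the 37 genes and Myc was the exception, being highest in XX. The top place of XX for Myc depended on XX replicate 3 (721.4 CPM), the smallest library with the highest mitochondrial share. Without that library, XX minus XY- was negative for Myc. The Myc means of XY- and XY-Sry, 602.1 and 601.5 CPM, were about equal. The lowest mean was in XX for 17 genes, in XXSry for 17 and in XY- for 3. For the library medians, the group mean was -0.06 ± 0.13 in XX and -0.01 ± 0.16 in XY- (log2, SD, n = 3). With Sry it was -0.07 ± 0.18 for XXSry and 0.14 ± 0.03 for XY-Sry. The ranges of XX, XY- and XXSry overlapped throughout, and XY- replicate 1 lay within the XY-Sry range. In the tests below, which did not set XX against XY-Sry or XY- against XXSry, no pair of groups was called different for any member.

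Myc (ENSMUSG00000022346, chromosome 15, 61985391 to 61990374, plus strand, mm10) had 654.2, 522.8 and 721.4 CPM in XX and 604.6, 588.4 and 613.3 CPM in XY-. It had 578.5, 543.4 and 484.9 CPM in XXSry and 584.0, 596.1 and 624.4 CPM in XY-Sry. The XX libraries enclosed the range of both XY- and XY-Sry, and all XXSry values lay below all XY-Sry values. XXSry minus XX was -0.24 ± 0.09 (log2, SE), with an edgeR adjusted p of 0.27 and an unadjusted p of 0.021. Without XX replicate 2 Myc was called lower with Sry, both within XX and as the mean of both backgrounds. In that fit 0.986% of all tested genes were called within XX and 5.19% for the mean. For XY-Sry minus XY- the log2 difference was 0.00 ± 0.09, with a 95% interval of -0.20 to 0.20.

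The RNA polymerase I group held Polr1a, Polr1b, Polr1c and Polr1e, which encode subunits of the enzyme (Polr1c is shared with RNA polymerase III), and Ubtf, the factor that binds the ribosomal DNA promoter. Polr1b, the second largest subunit, had 113.1, 90.8 and 94.0 CPM in XX and 125.1, 96.4 and 115.4 CPM in XY-. Its levels were 124.7, 109.8 and 86.1 CPM in XXSry against 125.6, 129.1 and 119.4 CPM in XY-Sry. Polr1e was at 36.9, 33.1 and 36.3 CPM in the XX libraries, 38.1, 35.6 and 36.8 CPM in the XY- libraries, 38.9, 36.7 and 31.5 CPM in the XXSry libraries and 40.9, 42.8 and 41.1 CPM in the XY-Sry libraries. All 3 XY-Sry values of Polr1e were above the other 9 libraries, while those of Polr1b overlapped XY- and XXSry. The group means of Polr1c were 70.2 ± 4.74 CPM for XX, 78.7 ± 6.69 for XY-, 76.4 ± 2.93 for XXSry and 84.9 ± 2.6 for XY-Sry (SD, n = 3). Polr1a ranged from 150.7 to 210.9 CPM and Ubtf from 201.9 to 250.8 CPM over the 12 libraries, Ubtf having the smallest ratio of highest to lowest.

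In the box C/D snoRNPs, which methylate ribosomal RNA, fibrillarin (Fbl) is the methyltransferase and Nop56 and Nop58 form the core around it. Nop56 had 243.3, 209.0 and 237.1 CPM without Sry in XX and 275.6, 220.8 and 247.3 CPM in XY-. With Sry the values were 244.2, 217.1 and 183.6 CPM for XXSry and 246.2, 262.2 and 253.6 CPM for XY-Sry. Its XXSry values all lay below its XY-Sry values, and its highest single value was in XY-. Nop58 ranged from 233.2 to 320.4 CPM, with its highest value in XX replicate 3. The counts of Fbl are uncertain. It had 12.7 to 19.2 CPM and 2926 counts in all libraries together, while 2 other table entries hold stretches at least 95% identical to its transcript. These were the pseudogene Gm5812 with 10237 counts and the gene Tulp4 with 17334 counts over all its transcripts, of which at least 1 holds the stretch.

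The box H/ACA snoRNPs convert uridine to pseudouridine, with dyskerin (Dkc1) as the enzyme and Gar1, Nhp2 and Nop10 as the other core proteins. Dkc1 lies on the X chromosome (75095854 to 75109777, plus strand) and is the one X-linked member. It had 228.4, 191.2 and 234.9 CPM in XX and 234.0, 193.3 and 210.3 CPM in XY-. Its levels were 220.7, 211.2 and 180.8 CPM in XXSry against 219.9, 241.9 and 234.6 CPM in XY-Sry. The XX libraries with 2 X chromosomes overlapped the XY- libraries with 1, at a log2 difference of 0.04 ± 0.09 (SE, 95% interval -0.16 to 0.23), and XXSry minus XY-Sry was -0.19 ± 0.09, with edgeR adjusted p-values of 0.96 and 0.50. Nop10 was at 90.3, 80.3 and 90.7 CPM in the XX libraries, 95.4, 74.9 and 79.2 CPM in the XY- libraries, 97.9, 80.0 and 84.1 CPM in the XXSry libraries and 97.1, 101.9 and 102.3 CPM in the XY-Sry libraries. Its XY-Sry values were all above its XY- values. Gar1 ranged from 58.9 to 80.9 CPM and Nhp2 from 96.4 to 134.6 CPM, both with the highest value in XY-Sry replicate 2.

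Nucleolin (Ncl) and nucleophosmin (Npm1) are abundant nucleolar proteins that bind ribosomal RNA and its precursors, and Nolc1 is a chaperone of snoRNPs. Ncl had 2236, 1747 and 2543 CPM without Sry in XX and 2286, 1771 and 2060 CPM in XY-. With Sry the values were 2348, 2203 and 1887 CPM for XXSry and 2379, 2492 and 2266 CPM for XY-Sry. Both the lowest and the highest of the 12 values were in XX, so the XX range enclosed the other 3 groups. Npm1 had 640.7, 564.7 and 710.4 CPM in XX and 683.2, 556.3 and 596.9 CPM in XY-. Its levels were 639.5, 591.1 and 563.2 CPM in XXSry against 653.7, 672.9 and 653.9 CPM in XY-Sry. Near-identical pseudogenes of Npm1 held counts equal to 12.1% of those of Npm1, so a part of its reads may have been assigned elsewhere. Nolc1 had 287.2 to 434.6 CPM, with its lowest value in XXSry replicate 3 and its highest in XY-Sry replicate 2.

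The small subunit processome and its cofactors, which assemble on the 5′ part of the precursor, were represented by Rrp9 (a protein of the U3 snoRNP), Nop14, Noc4l, Utp20, Wdr43, Wdr75, Heatr1, the RNA acetyltransferase Nat10 and Rrp12. Rrp9 was at 50.3, 45.4 and 40.7 CPM in the XX libraries, 59.5, 44.4 and 53.0 CPM in the XY- libraries, 59.0, 51.4 and 36.6 CPM in the XXSry libraries and 59.4, 62.2 and 61.2 CPM in the XY-Sry libraries. It varied most between libraries, and its XY-Sry values were above all XX and all XXSry values. Utp20 had 152.2, 114.9 and 131.6 CPM without Sry in XX and 170.3, 123.7 and 150.3 CPM in XY-. With Sry the values were 176.9, 158.2 and 122.4 CPM for XXSry and 179.7, 178.3 and 172.5 CPM for XY-Sry. XY-Sry was above all XX and XY- libraries and overlapped XXSry. The remaining members ranged from 92.8 to 129.7 CPM (Nop14), 111.2 to 156.3 (Noc4l), 187.5 to 254.1 (Wdr43), 68.4 to 98.3 (Wdr75), 153.6 to 221.2 (Heatr1), 76.1 to 107.9 (Nat10) and 59.7 to 95.2 (Rrp12). In 5 of these 7, all but Nop14 and Heatr1, the lowest of the 12 values was in XXSry replicate 3.

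Pes1, Bop1 and Wdr12 form the PeBoW complex, which is needed for processing of the large subunit precursor. Bop1 had 132.8, 119.4 and 119.6 CPM in XX and 150.5, 120.6 and 143.3 CPM in XY-. Its levels were 150.6, 141.0 and 115.5 CPM in XXSry against 155.8, 166.3 and 160.7 CPM in XY-Sry. Its XY-Sry values were above all other libraries. Pes1 was at 92.6, 88.1 and 93.2 CPM in the XX libraries, 91.4, 80.8 and 88.5 CPM in the XY- libraries, 87.4, 84.0 and 77.8 CPM in the XXSry libraries and 97.1, 89.9 and 92.4 CPM in the XY-Sry libraries. Pes1 had the smallest spread within groups, and its XXSry values were below all XX and all XY-Sry values. A near-identical pseudogene held counts equal to 11.1% of those of Pes1. Wdr12 ranged from 41.7 to 61.1 CPM, and its counts are uncertain because of a near-identical pseudogene, Gm4879, with 2436 counts against 9255.

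Of the large subunit assembly factors, Rrs1 helps to bring the 5S particle into the precursor, Nop2 is an RNA methyltransferase, Gnl3 is nucleostemin, a nucleolar GTP-binding protein of dividing cells, and Rrp1b, Nop16, Noc2l and Noc3l are assembly proteins of the precursor. Rrs1 (ENSMUSG00000061024, chromosome 1, 9545408 to 9547455, plus strand) had 96.5, 79.4 and 85.7 CPM without Sry in XX and 99.3, 76.0 and 93.9 CPM in XY-. With Sry the values were 97.5, 88.8 and 74.8 CPM for XXSry and 107.1, 109.7 and 112.8 CPM for XY-Sry. All XY-Sry values of Rrs1 exceeded the other 9 libraries. Nop2 had 158.2, 121.5 and 146.7 CPM in XX and 166.9, 130.0 and 163.3 CPM in XY-. Its levels were 148.3, 138.3 and 115.0 CPM in XXSry against 160.8, 170.1 and 167.7 CPM in XY-Sry. Gnl3 was at 138.3, 109.3 and 139.5 CPM in the XX libraries, 146.9, 114.0 and 134.6 CPM in the XY- libraries, 121.2, 115.9 and 94.0 CPM in the XXSry libraries and 126.6, 141.3 and 138.4 CPM in the XY-Sry libraries. For Nop2 and Gnl3 the XXSry values were below all XY-Sry values, and both genes overlapped between XX and XY-. Rrp1b ranged from 106.2 to 143.1 CPM, Nop16 from 36.1 to 54.5, Noc2l from 206.4 to 285.4 and Noc3l from 37.3 to 50.1. Exons of Noc2l share 20.9% of their bases with Samd11 on the opposite strand, and without a stated strand setting the reads of the overlap cannot be assigned.

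Mybbp1a, a nucleolar protein that binds the transcription factor Myb, had 586.8, 465.2 and 533.4 CPM without Sry in XX and 634.3, 477.4 and 590.8 CPM in XY-. With Sry the values were 641.0, 575.1 and 470.8 CPM for XXSry and 663.4, 667.9 and 630.9 CPM for XY-Sry. Ddx21, an RNA helicase that acts in transcription of ribosomal genes, ranged from 432.9 to 597.4 CPM, with the lowest value in XXSry replicate 3 and the highest in XY-Sry replicate 2. The XY-Sry values of Mybbp1a overlapped those of XY- and XXSry.

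**Figure D2:**
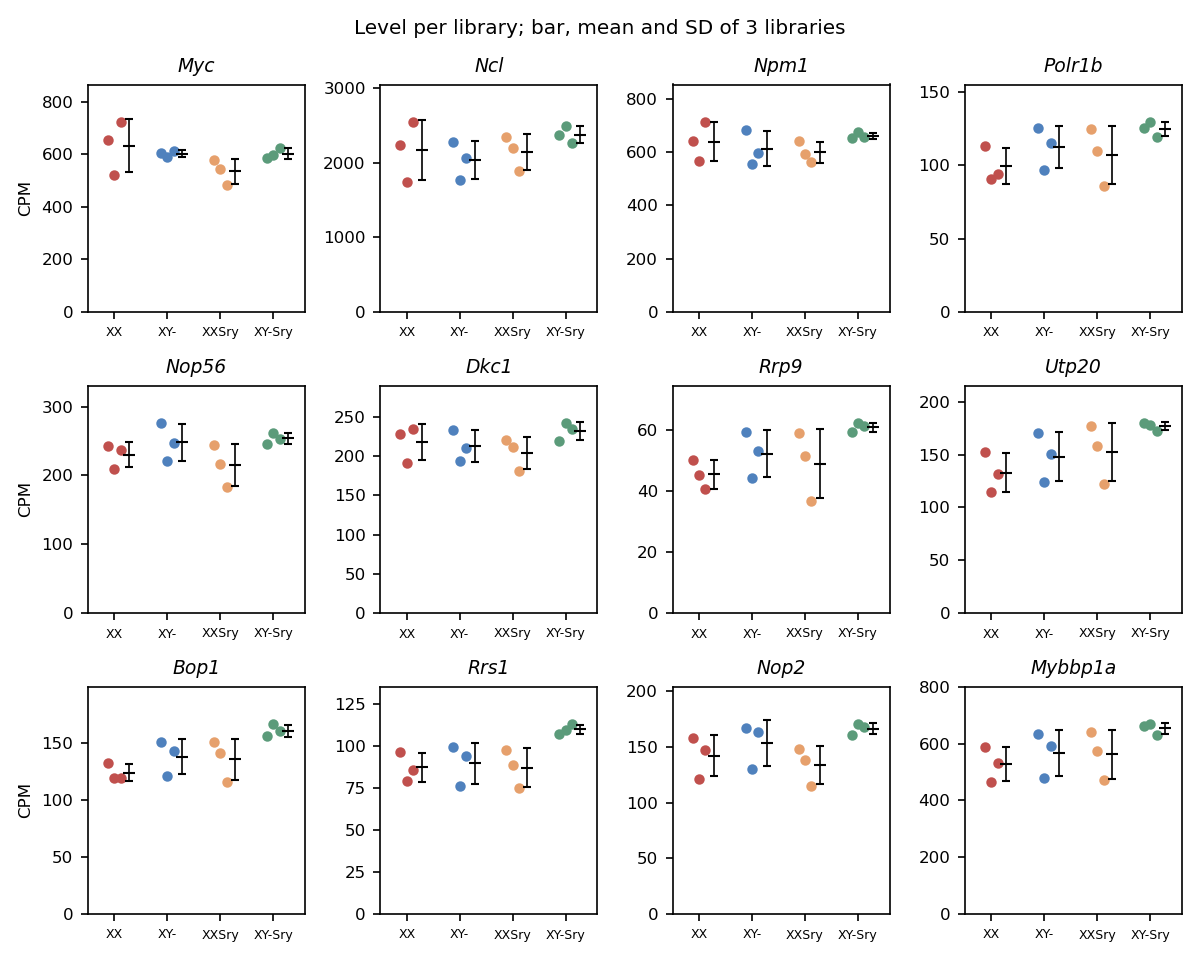
Points give CPM (vertical axis, from 0) in each library of 12 members by group, and the black bars the mean and SD of 3 libraries. In Rrs1 and Bop1 all 3 XY-Sry points lie above the other 9, while in Ncl the XX points run from 1747 to 2543 CPM and enclose the other groups.

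The comparison of sex chromosomes addressed the aim named in the series' title. Among cells carrying Sry, all 37 genes were lower in XXSry than in XY-Sry, by a median of -0.20 (log2, range -0.34 to -0.10). The median over all tested genes was 0.00, a value that the scaling holds near 0. None of the 37 was called at an adjusted p under 0.05 by the edgeR quasi-likelihood F-test or by DESeq2, where 0.103% of all tested genes were called by edgeR. At an unadjusted p under 0.05, 15 of 37 were lower, against 4.39% of all tested genes, and the DESeq2 count was 14. In 18 of 37 every XXSry library was below every XY-Sry library, against 9.88% of all tested genes. Those 18 were Myc, Polr1c, Polr1e, Nop56, Npm1, Nolc1, Rrp9, Noc4l, Wdr43, Wdr75, Nat10, Rrp12, Pes1, Bop1, Rrs1, Nop2, Nop16 and Gnl3.

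The largest of these differences were in large subunit and processome genes. XXSry minus XY-Sry was -0.34 ± 0.10 for Rrs1 (log2, SE, 95% interval -0.56 to -0.12), -0.32 ± 0.14 for Rrp9, -0.31 ± 0.11 for Nop2 and -0.30 ± 0.11 for Gnl3. The lowest edgeR adjusted p of the 37 genes was 0.45. By role, the median ran from -0.15 in the RNA polymerase I group and the Ncl, Npm1 and Nolc1 group to -0.24 in the large subunit group. The counts rested on single libraries. The share of all genes at an unadjusted p under 0.05 was worked out only for the main fit. Such counts from DESeq2 and from the other fits, here and below, have no background beside them. Without XXSry replicate 3, 1 of 37 was lower at an unadjusted p under 0.05 and the median was -0.11; without XXSry replicate 1, 29 were lower and the median was -0.29. Leaving out XY-Sry replicate 2 or 3 gave 4 or 7, and leaving out XXSry replicate 2 or XY-Sry replicate 1 gave 10 each. A fit of XXSry and XY-Sry alone gave 24.

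Without Sry, XX minus XY- had a median of -0.06 over the 37 genes, with 28 lower and 9 higher. No member was called by edgeR or DESeq2, against 0.103% of all tested genes by edgeR, and the lowest adjusted p was 0.74. Polr1c (-0.16 ± 0.07) and Nop16 (-0.26 ± 0.11, log2, SE) were the 2 members at an unadjusted p under 0.05, the same number as in DESeq2, against 3.19% of all tested genes lower. In 0 of 37 was every XX library below every XY- library, against 5.07% of all tested genes. The median was 0.02 without XX replicate 2, 0.00 without XY- replicate 1 and -0.15 without XY- replicate 2, so its sign depended on 1 library. At an unadjusted p under 0.05, 7 members were lower without XY- replicate 2, 4 without XX replicate 1, 1 without XX replicate 2 (with 3 higher) or XY- replicate 3, and 0 without XX replicate 3 or XY- replicate 1.

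Averaged over both backgrounds, all 37 genes were lower with XX than with XY-, with a median of -0.13 (range -0.26 to -0.03). Again none was called by edgeR (lowest adjusted p 0.23, Nop16) or by DESeq2, against 0.137% of all tested genes by edgeR. At an unadjusted p under 0.05, 13 were lower, against 6.75% of all tested genes, and DESeq2 gave 12. The largest were Rrp9 (-0.26 ± 0.10), Nop16 (-0.25 ± 0.07) and Rrp12 (-0.25 ± 0.10, log2, SE). The unadjusted count was 24 without XY- replicate 2 and 23 without XXSry replicate 1, against 4 without XY- replicate 1, 5 without XX replicate 2 or XXSry replicate 3, and 7 without XY- replicate 3 or XY-Sry replicate 2. When all genes with at least 1 read were tested in place of the filtered set, 13 members were called for the mean and 9 within the Sry-carrying groups. Of all genes in that setting, 2.39% and 1.35% were called.

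**Figure D3:**
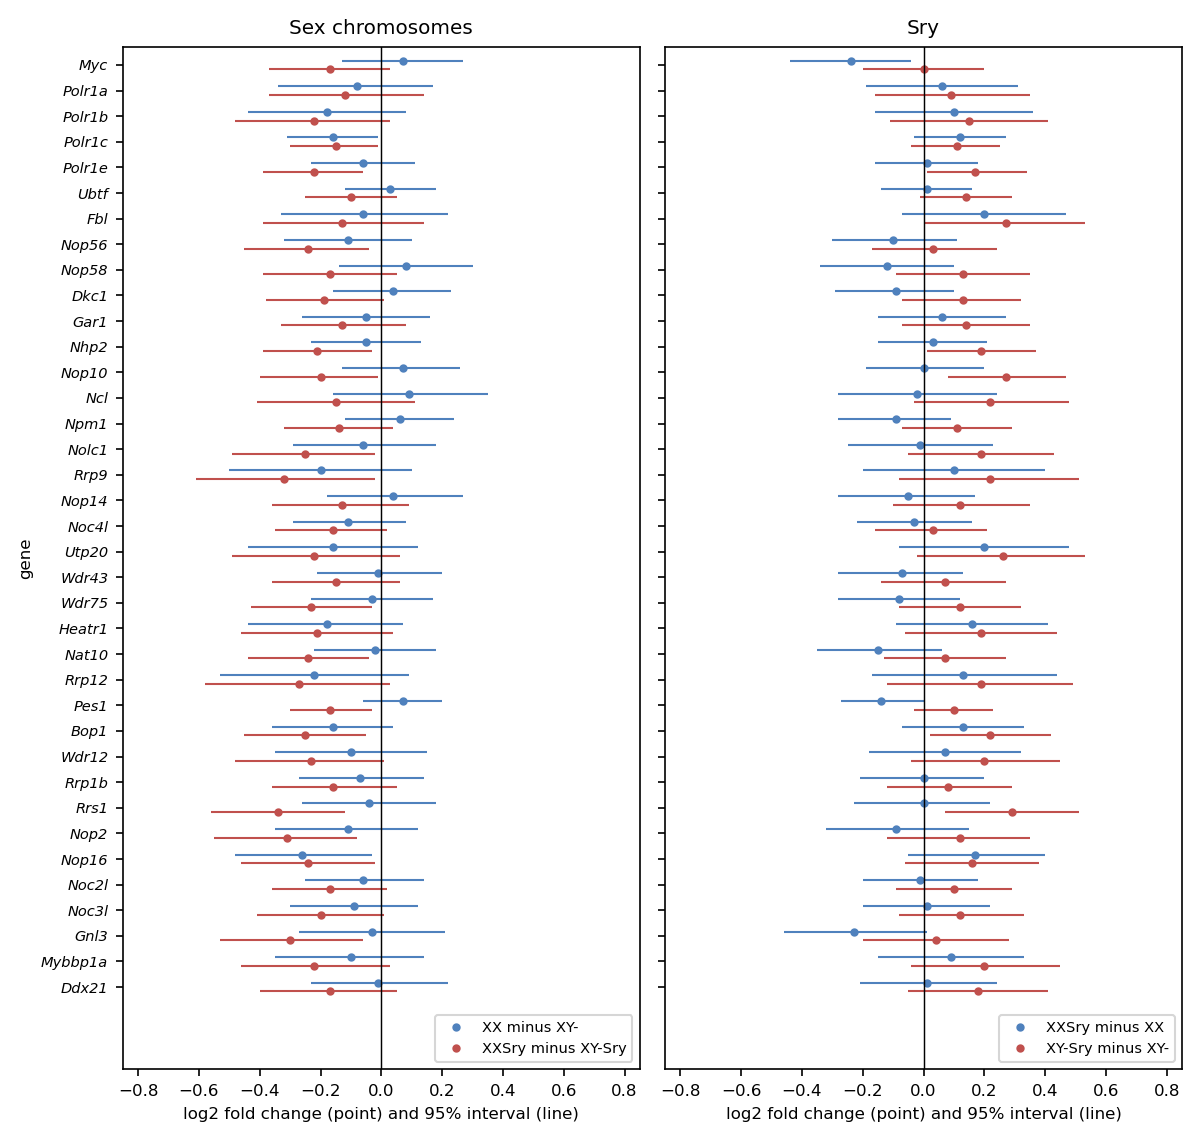
Points give the log2 fold change of each gene and lines the 95% interval, at left for XX minus XY- (blue) and XXSry minus XY-Sry (red), at right for XXSry minus XX (blue) and XY-Sry minus XY- (red). All 37 red points at left lie below 0, from -0.34 to -0.10, and all red points at right but that of Myc lie above 0.

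The effect of Sry on the XY- background gave a similar picture from the side of XY-Sry. It shares the XY-Sry libraries with the comparison of XXSry and XY-Sry above, so it is no separate evidence. XY-Sry minus XY- had a median of 0.14 (log2), with 36 of 37 genes higher, and no member was called by edgeR (lowest adjusted p 0.20, Nop10) or DESeq2, against 0.679% of all tested genes by edgeR. At an unadjusted p under 0.05, 6 members were higher, against 4.94% of all tested genes, and DESeq2 gave 4. A fit of XY- and XY-Sry alone gave 14. The 6 were Polr1e, Fbl, Nhp2, Nop10, Bop1 and Rrs1, led by Rrs1 at 0.29 ± 0.10 and Nop10 at 0.27 ± 0.09 (log2, SE). Every XY-Sry library was above every XY- library for 10 of 37, against 11.1% of all tested genes, namely Polr1e, Ubtf, Fbl, Nop58, Nhp2, Nop10, Utp20, Bop1, Rrs1 and Ddx21. Without XY- replicate 2 the median was 0.06 and 1 member was higher at an unadjusted p under 0.05. Without XY- replicate 1 the number was 16, and Nop10 was called, where 1.22% of all tested genes were called. The number at an unadjusted p under 0.05 fell to 3 without XY-Sry replicate 1 or 3 and to 2 without XY-Sry replicate 2.

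On the XX background the members had no common direction. XXSry minus XX had a median of 0.00, with 19 genes higher and 18 lower, and no member called by edgeR or DESeq2, against 0.453% of all tested genes by edgeR. Myc and Pes1 (-0.14 ± 0.06, log2, SE) were lower at an unadjusted p under 0.05, against 7.18% of all tested genes, and DESeq2 gave 1. Pes1 was the one member with every XXSry library below every XX library, against 7.99% of all tested genes. The signs turned with single libraries, since 30 were higher without XXSry replicate 3 and 29 lower without XXSry replicate 1. At an unadjusted p under 0.05, 5 were lower without XX replicate 2 and 4 without XXSry replicate 1, while 6 were higher without XXSry replicate 3 and 4 without XX replicate 1.

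Single markers of other T cells and of activation differed with Sry beside these values. Cd8a, a coreceptor chain of CD8 T cells, had 3.11, 2.93 and 4.98 CPM in XX, with 6.49, 5.17 and 3.86 CPM in XY-. Its levels were 2.16, 1.41 and 2.04 CPM for XXSry and 1.80, 2.45 and 2.14 CPM for XY-Sry, below every library without Sry. By edgeR it was called lower for the mean effect of Sry (-1.11 ± 0.18, log2, SE, adjusted p 0.0037, in all 12 fits that left out 1 library) and within XY- (-1.27 ± 0.25, adjusted p 0.034, in 6 of 12). It was the one called gene of the 4 tested of 6 markers of CD8 T and NK cells, none of which was at 0 throughout. Their sums were 41.8 to 82.1 CPM in XX, 53.2 to 70.0 in XY-, 45 to 50.1 for XXSry and 48.1 to 58.2 for XY-Sry. Of 10 CD4 T cell markers, Cd5, which dampens receptor signalling, was called higher (0.20 ± 0.04, edgeR adjusted p 0.0079, 12 of 12 fits) and Il2ra lower (-0.18 ± 0.04, edgeR adjusted p 0.02, 7 of 12 fits) for the mean effect of Sry. As a list, 5 of these 10 were higher and 5 lower, with a median of 0.01 (log2). Of all tested genes, edgeR called 5.44% for the mean effect of Sry and 0.679% within XY-. The part of Cd8a, Cd5 and Il2ra in the members' values was not tested.

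Averaged over both backgrounds, Sry minus no Sry had a median of 0.09, with 30 genes higher and 7 lower. No member was called by edgeR (lowest adjusted p 0.14, Fbl and Bop1) or DESeq2, although 5.44% of all tested genes were called by edgeR. At an unadjusted p under 0.05, 6 members were higher, against 9.75% of all tested genes, and DESeq2 gave 7. Without XXSry replicate 3, Bop1 and Utp20 were called, where 8.66% of all tested genes were called. In that fit 17 members were higher at an unadjusted p under 0.05. That number was 10 without XY- replicate 1, 3 without XX replicate 2, XXSry replicate 2, XY- replicate 3, XY-Sry replicate 2 or XY-Sry replicate 3, and 1 without XXSry replicate 1 or XY- replicate 2. With the interaction, which asks whether the effect of Sry differed between the backgrounds, 35 of 37 estimates were positive with a median of 0.13, the largest being Rrs1 at 0.30 ± 0.15 (log2, SE). No gene was called for it (0.0% of all tested genes by edgeR, and 0 by DESeq2), every member had an adjusted p of 1.0, and Pes1 (0.24 ± 0.09) was the one member positive at an unadjusted p under 0.05, against 1.15% of all tested genes. That count was 9 without XX replicate 2, 7 without XXSry replicate 1 or XY- replicate 1, and 0 without XY- replicate 2 or XY-Sry replicate 1. A difference between the backgrounds was therefore not shown for any member.

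Other genes of ribosome production, from a wider list of 102 tested genes, had values like those of the members. For XXSry minus XY-Sry 98 of 102 were lower, with a median of -0.16, none was called, and 47 were lower with no overlap between the groups, against 9.88% of all tested genes. For the mean of both backgrounds 94 of 102 were lower, with a median of -0.10. Ddx55, a helicase of large subunit assembly, was the one gene of this list called in any comparison. The call was for the mean effect of Sry, where 5.44% of all tested genes were called. It had 44.1, 41.0 and 50.9 CPM in XX and 42.8, 44.8 and 44.8 CPM in XY-. Its levels were 38.9, 36.7 and 36.6 CPM in XXSry against 36.8, 40.0 and 41.0 CPM in XY-Sry. With Sry it was lower by edgeR at -0.22 ± 0.06 (log2, SE, adjusted p 0.032), and the call held in 6 of the 12 fits that left out 1 library.

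Low values in the same libraries were also seen in other lists. In XX replicate 2, XY- replicate 2 and XXSry replicate 3 the list medians were -0.15, -0.11 and -0.19 (log2) for the other ribosome production genes. They were -0.16, -0.14 and -0.20 for 35 Myc targets outside the nucleolus, and -0.10, -0.13 and -0.26 for 10 tested host genes of small nucleolar RNAs. The host genes were also low in XXSry replicate 2, at -0.14, below their values in XX replicate 2 and XY- replicate 2.

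**Figure D4:**
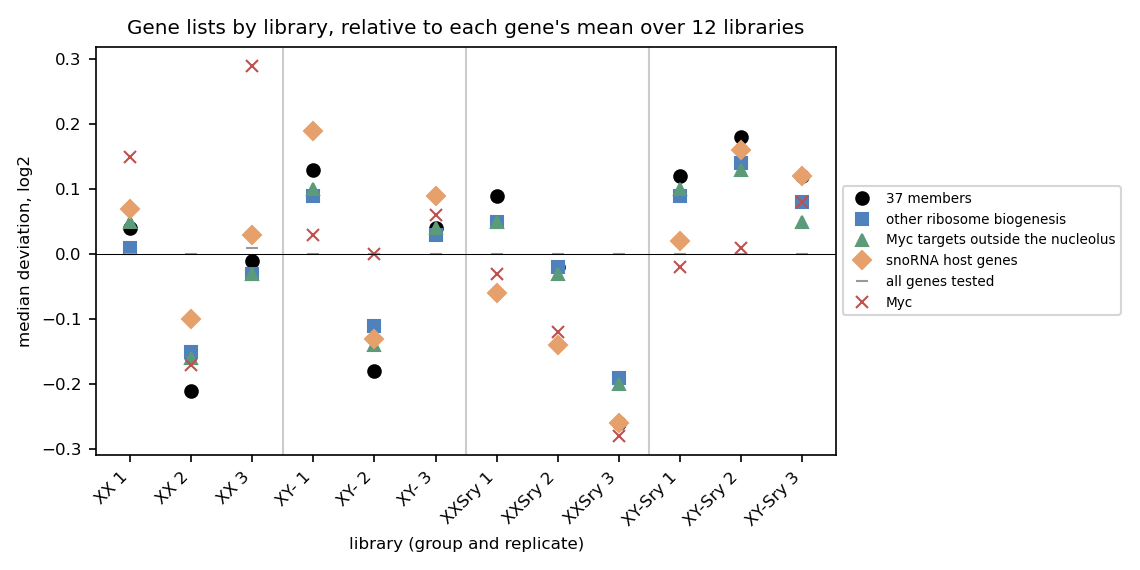
Each symbol is the median over a gene list of log2 CPM minus the gene's mean over 12 libraries, with Myc as a single gene and grey dashes for all tested genes. The members (-0.21, -0.18 and -0.26), the other ribosome biogenesis genes and the Myc targets are lowest in XX 2, XY- 2 and XXSry 3. The snoRNA host genes are also low in XXSry 2 (-0.14), and Myc is at 0.00 in XY- 2. All tested genes stay between 0.00 and 0.01, where the scaling holds them.

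Of the 14 tested genes of the Myc network, the partners and opponents of Myc, 2 were called, both for the mean effect of Sry, where 5.44% of all tested genes were called. Mxi1, which encodes a Max partner that opposes Myc, was at 52.3, 59.3 and 54.8 CPM in the XX libraries, 42.2, 62.7 and 44.8 CPM in the XY- libraries, 34.5, 39.7 and 52.6 CPM in the XXSry libraries and 34.2, 23.3 and 34.0 CPM in the XY-Sry libraries. It was lower with Sry by edgeR at -0.55 ± 0.12 (log2, SE, adjusted p 0.017), and the call was lost without XXSry replicate 2. Every XY-Sry value was below every XX and XY- value, while XXSry overlapped both groups without Sry. Mxd1, another Max partner that opposes Myc, had 82.7, 104.5 and 95.4 CPM without Sry in XX and 72.1, 94.7 and 87.4 CPM in XY-. With Sry the values were 107.5, 113.1 and 121.8 CPM for XXSry and 99.2, 97.5 and 99.5 CPM for XY-Sry. It was higher with Sry by edgeR at 0.25 ± 0.07 (adjusted p 0.041), but the call held in only 2 of the 12 fits that left out 1 library. The pair of Myc opponents thus moved in opposite directions with Sry. From library to library they went together, both being highest of their group in XX replicate 2, XY- replicate 2 and XXSry replicate 3.

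The remaining network genes were not called in any comparison. Max, the partner that Myc needs, had group means of 287.0 ± 34.9, 271.2 ± 14.4, 273.8 ± 8.06 and 276.6 ± 8.15 CPM in XX, XY-, XXSry and XY-Sry (SD, n = 3). Its log2 difference for the mean effect of Sry was -0.02 ± 0.05 (SE). The related Mycn and Mycl were near the limit of detection, at 0.483 to 2.23 and 0.517 to 1.56 CPM. Fbxw7, which marks Myc protein for degradation, was at 0.20 ± 0.06 for the mean effect of Sry, with an edgeR adjusted p of 0.062. Mnt, Mga, Mlx, Mlxip, Mxd3, Mxd4, Tfap4 and Zbtb17 complete the list.

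Among 35 tested Myc targets outside the nucleolus, 3 were called for the mean effect of Sry, where 5.44% of all tested genes were called. Tfrc, the transferrin receptor that brings iron into dividing cells, had 2105, 2259 and 1914 CPM in XX and 1988, 2345 and 2081 CPM in XY-. Its levels were 1799, 1847 and 1744 CPM in XXSry against 1750, 1626 and 1648 CPM in XY-Sry. Every library with Sry was below every library without it, and the log2 difference was -0.29 ± 0.05 (SE, edgeR adjusted p 0.0051), called in all 12 fits that left out 1 library. Ccnd2, a cyclin of early G1, was higher with Sry at 0.26 ± 0.06 (adjusted p 0.016 by edgeR), a call lost without XY-Sry replicate 2. Its group means were 939.9 ± 76.2 and 936.9 ± 96.0 CPM in XX and XY-, and 1110.3 ± 90.3 and 1142.2 ± 42.6 CPM in XXSry and XY-Sry (SD, n = 3). Hk2, a hexokinase of glycolysis, was lower at -0.23 ± 0.06 (adjusted p 0.045 by edgeR) and kept its call in 3 of those 12 fits. Zfas1, a host gene of small nucleolar RNAs, was lower with Sry at -0.19 ± 0.05 (adjusted p 0.041 by edgeR, 4 of 12 fits); it is antisense to Znfx1, whose reads could not be told apart from its own.

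**Figure D5:**
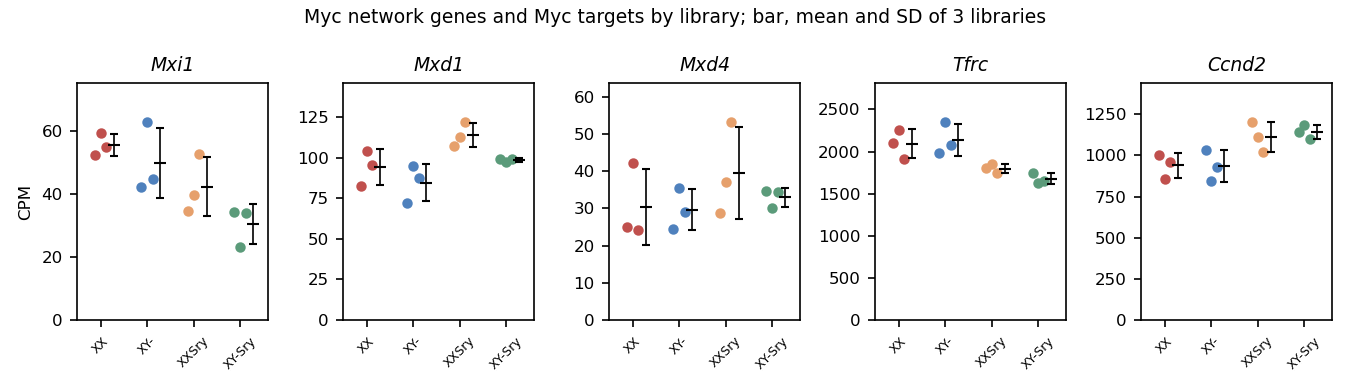
Points give CPM (vertical axis, from 0) in each library for 3 opponents of Myc and 2 Myc targets, and the black bars the mean and SD of 3 libraries. Tfrc reaches at most 1847 CPM in the libraries with Sry and at least 1914 CPM in those without it. Mxi1, Mxd1 and Mxd4 are highest in XX 2, XY- 2 and XXSry 3 within their groups.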

How the data were processed

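The authors deposited 1 table of counts (whole reads per Ensembl gene, 1 column for each of 12 libraries). The submitters' processing notes name bcl2fastq 2.17 and mm10; aligner, counter, annotation and strand setting are not given in the sources used here. Of 39017 identifiers, 37693 matched GENCODE M21, and the 1324 others held 0.597% of counts. The test was edgeR 4.0.16 under R 4.3.3 (TMM factors, filterByExpr by group with a minimum count of 10 and a minimum total count of 15, 1 term per group over 12 libraries, quasi-likelihood F-test), with p-values adjusted by Benjamini-Hochberg over all 14585 tested genes and calls at 0.05. Levels are CPM with TMM factors. DESeq2 1.42.0 was an alternative, beside other scalings and filters, a replicate block, fits of only the groups compared, and each library left out. Replicates differed by more than sampling noise (chi-square per degree of freedom 2.47 to 18.0), so each library was counted once. Same-numbered libraries did not deviate together throughout (r from -0.161 to 0.227, over 0.1 in 5 of 18 pairs), and the main fit used no pairing. The replicate 1 libraries of XX, XY- and XXSry did correlate weakly with each other (0.167, 0.182 and 0.227). A factor shared by these replicate 1 libraries was not tested beyond the replicate block. The 3 libraries with low member values also deviated together over all tested genes. XY- replicate 2 and XXSry replicate 3 correlated at 0.346, XX replicate 2 and XXSry replicate 3 at 0.176, and XX replicate 2 and XY- replicate 2 at 0.115. A factor shared by these 3 was not tested. Copies were searched with blastn (at least 95% identity over at least 200 bases). The 37 members and all gene lists were chosen with earlier results of these data known. Named genes are all members, all tested genes of the Myc network, called genes of the other lists and the genes that check the labels. Of the uncalled markers, Cd69, Cd44 and those at 0 throughout are named.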

Additional observations from a re-analysis of the deposited data

How the results depend on the processing

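Over 20 alternatives (12 leaving out 1 library) for the pairwise comparisons, and 19 for the means and the interaction, which had no fit of only the groups compared, no member was called for XX against XY- with or without Sry, for the mean of both or for the interaction, except with no filter on low counts. That setting, which tests 27235 genes, called 5 members for the mean effect of Sry, 1 within XX, 5 within XY-, 13 for the mean of the sex chromosomes and 9 for XXSry against XY-Sry. In the same order, it called 5.49%, 2.34%, 2.58%, 2.39% and 1.35% of all genes tested. Leaving out 1 library gave 0 to 2 members called for the mean effect of Sry, 0 to 1 within XX and 0 to 1 within XY-. In the fits with such calls, the share of all tested genes called was 5.19% or 8.66% for the mean, 0.986% within XX and 1.22% within XY-. The log2 difference of Myc between XX and XY- was 0.07 and ran from -0.03 to 0.19 over these fits, being negative without XX replicate 3; the cause of these changes was not tested. With the replicate number as a block, 0 members were called in any comparison, and 21 of 37 were lower at an unadjusted p under 0.05 both for XXSry against XY-Sry and for the mean of the sex chromosomes, with 10 higher for Sry within XY- and 3 for the interaction. Scaling by total counts only gave 21 for the mean of the sex chromosomes, and fits of only the groups compared gave 0 for Sry within XX and 1 for XX against XY-. With no filter, the members at an unadjusted p under 0.05 numbered 18 for the mean effect of Sry, 5 within XX, 18 within XY-, 25 for the mean of the sex chromosomes, 8 without Sry, 32 with Sry and 12 for the interaction. The share of all genes at this unadjusted cutoff was not worked out for the alternative fits, so these counts have no background beside them. All genes called by DESeq2 in place of edgeR numbered 84 against 20 for the mean of the sex chromosomes, 24 against 15 for XXSry against XY-Sry, 263 against 66 for Sry within XX and 271 against 99 for Sry within XY-. With no filter they were 1494 for the mean effect of Sry, 638 within XX, 703 within XY-, 652 for the mean of the sex chromosomes, 124 without Sry, 368 with Sry and 32 for the interaction. Fits of only the groups compared called 4 genes for Sry within XX and 278 within XY-, and the block 103 within XX. With 3 libraries a group, the 95% intervals of single members had ends as far as 0.61 from 0 on the log2 scale. Such an end bounds the differences that these values allow and is not a limit of detection.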
